A study of Mus musculus with 11 samples.

Results

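Dorsal root ganglion (DRG) transcript levels of 6 genes that encode accessory proteins of voltage-gated channels were examined: the intracellular fibroblast growth factors *Fgf11*, *Fgf12*, *Fgf13* and *Fgf14*, and the dipeptidyl peptidase-like genes *Dpp6* and *Dpp10*. These were the 6 rows of the 36670-gene table that carried those gene names. They were chosen with earlier results of these data known, and *Fgf12* and *Dpp10*, which led the choice, were picked from their higher levels outside the WT control group, so the group differences below are a description and carry no test. Bulk poly(A) RNA-Seq covered whole DRGs of 11 mice. The WT control group held 3 mice and the WT group sampled 4 weeks after paclitaxel (PTX, a taxane chemotherapy drug that causes a painful neuropathy) held 3. The Gpr37L1 KO control group held 3 mice and the KO group sampled 4 weeks after PTX held 2. Both KO groups carried the same *Gpr37l1* allele, named tm1Lex, on the C57BL/6 background that the study used for the line and its littermates. The disrupted gene encodes a receptor of satellite glial cells. Controls are marked V in the labels, whereas the paper describes its untreated mice as naive, and the dose of PTX and the age of the sequenced mice were not given in the sources used here. Replicate 3 of each group was female (4 mice) and the others were male (7 mice), so sex and replicate 3 cannot be told apart.

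Intracellular FGFs share the fold of the secreted FGFs but lack a signal for secretion; they stay in the cell, bind the tails of sodium channels and set how readily these channels inactivate. Several of the genes start at alternative first exons, which give proteins with different amino ends. DPP6 and DPP10 resemble dipeptidyl peptidases but have no enzyme activity; they span the membrane, join Kv4 potassium channels together with the KChIP calcium sensors and speed the gating of the A-type current. In DRG neurons both kinds of partner act on the currents that set action potential threshold and firing. In whole ganglia, fewer cells of a type and less RNA per cell cannot be told apart.

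The start regions of the 2 genes that the differences turn on are printed because each gene has start sites that the deposited table adds into a single value. The windows come from RefSeq on GRCm38.p6, run 5′ to 3′ on the minus strand from 250 bases before to 50 bases after the start, and were each at a start that matches a coding transcript in GENCODE exactly. Capitals mark a GC box (GGGCGG or its reverse complement) in the first pair of windows and an AP-1 site (TGAGTCA) in the last.
*Dpp10*, chr1:124045510-124045809, minus strand: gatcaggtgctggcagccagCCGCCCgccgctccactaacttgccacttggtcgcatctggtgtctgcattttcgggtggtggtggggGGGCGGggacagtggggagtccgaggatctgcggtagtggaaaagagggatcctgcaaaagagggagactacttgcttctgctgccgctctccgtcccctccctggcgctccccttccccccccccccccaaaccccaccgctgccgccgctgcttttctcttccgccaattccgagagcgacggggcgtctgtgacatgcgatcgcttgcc
*Fgf12*, chr16:28564902-28565201, minus strand, start of the gene in the deposited table: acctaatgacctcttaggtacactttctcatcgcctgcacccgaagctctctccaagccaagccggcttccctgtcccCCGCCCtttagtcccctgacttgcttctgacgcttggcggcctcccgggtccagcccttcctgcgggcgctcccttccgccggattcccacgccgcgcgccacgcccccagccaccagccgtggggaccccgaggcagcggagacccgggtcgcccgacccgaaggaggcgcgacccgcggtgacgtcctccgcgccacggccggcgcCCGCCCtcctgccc
*Fgf12*, chr16:28446026-28446325, minus strand, start within the gene: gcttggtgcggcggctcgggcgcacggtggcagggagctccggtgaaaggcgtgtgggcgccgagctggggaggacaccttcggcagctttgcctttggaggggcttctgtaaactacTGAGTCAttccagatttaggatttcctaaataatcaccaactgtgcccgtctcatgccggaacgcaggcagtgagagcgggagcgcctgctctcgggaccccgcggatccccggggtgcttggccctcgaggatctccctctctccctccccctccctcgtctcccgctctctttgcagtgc
Both *Fgf12* starts are internal in GENCODE vM21, where the gene runs on to position 28753068, and a further RefSeq window at chr16:28753194-28753493 lies 5′ of them. The *Dpp10* start is the 5′ end of the gene in GENCODE but lies inside the deposited gene, which runs on to position 124846039. The *Dpp10* window and the first *Fgf12* window held 2 GC boxes each, whereas the second *Fgf12* window held none and 1 AP-1 site. On either strand, GC boxes were in 35.7% and AP-1 sites in 5.2% of all 32851 windows of this length. None of the 3 windows held the cAMP response element TGACGTCA (1.79% of all windows), the E-box CACGTG (7.15%) or TATAAA (13.6%), and no motif searched overlapped another in them. Their GC content was 65.0%, 71.7% and 63.7%, beside a median of 52.7% over all windows. These matches describe letters only.

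The table placed *Fgf12* (ENSMUSG00000022523) at chr16:28160098-28564951, *Fgf13* (ENSMUSG00000031137) at chrX:59062145-59568071, *Fgf14* (ENSMUSG00000025551) at chr14:123977907-124677127 and *Fgf11* (ENSMUSG00000042826) at chr11:69796068-69801857 on mm10. *Dpp6* (ENSMUSG00000061576) was at chr5:26817203-27727505 and *Dpp10* (ENSMUSG00000036815) at chr1:123321471-124846039. Of the 6 genes, 5 are among the long genes of the genome, spanning 405 kb (*Fgf12*), 506 kb (*Fgf13*), 699 kb (*Fgf14*), 910 kb (*Dpp6*) and 1525 kb (*Dpp10*), whereas *Fgf11* spanned 5.79 kb. The spans of *Fgf12* and *Dpp10* differed from GENCODE vM21, which gives 593 kb and 724 kb.

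Libraries held between 52735648 and 80348732 estimated counts. *Gpr37l1* lay between 14.6 and 35.7 FPKM in the 6 WT mice and between 0.21 and 1.15 in the 5 KO mice, so that every library matched its genotype label (log2 fold change −7.03 ± 0.37 SE between controls, edgeR quasi-likelihood test, adjusted *P* = 4.53e-05). FPKM, fragments per kilobase of transcript scaled to library depth, is a level per length and allows genes to be compared. All 12 sensory neuron markers were detected in each group, and their summed FPKM lay between 4538 and 5347 in the 11 mice. The sum of 8 macrophage markers was 29.9 to 39.7 in WT controls against 21.9 to 26.7 in WT PTX, 28.0 to 30.3 in KO control and 24.8 to 29.1 in KO PTX mice. The sum of 7 skeletal muscle markers ran from 3.15 to 602, and that of 12 spinal cord markers stood at 23.0 in KO PTX mouse 3 and lay between 4.29 and 11.03 in the 10 others. No macrophage or muscle marker was at 0 in a whole group, whereas 1 to 3 of the spinal cord markers were.

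Within the set, *Fgf13* was the predominant transcript and the order of the members was the same in most mice. *Fgf13*, which binds the sodium channels of sensory neurons and also microtubules, ranged from 121 to 182 FPKM (mean 158), a level above that of 99.5% of the genes detected. *Fgf12* followed with 37.2 to 67.7 FPKM (mean 56.2), then *Dpp6* with 33.2 to 45.6 (mean 40.2), *Dpp10* with 5.98 to 15.3 (mean 11.5) and *Fgf11* with 5.09 to 8.60 (mean 6.07). *Fgf14*, the member associated with cerebellar ataxia, was near the floor at 0.34 to 0.61 FPKM, from 93 to 176 estimated counts, and its mean of 0.44 was under the minimum of 0.5 set for testing, so that 5 of the 6 members were tested. Neighbours in this order, which was taken from the same levels, were compared within mice by an exact permutation test that flips the sign of log2 ratios (two-sided, 5 pairs). Its *P* is given only for the pair without *Fgf12* or *Dpp10*, since the other ratios move with the group differences on which these genes were chosen. *Fgf11* exceeded *Fgf14* by 3.50 ± 0.33 on the log2 scale (SD, *n* = 11) in 11 of 11 mice (exact adjusted *P* = 0.00122). *Fgf13* exceeded *Fgf12* by 1.50 ± 0.17 in 11 of 11 mice. *Fgf12* exceeded *Dpp6* by 0.46 ± 0.18 in 11 of 11 mice, and *Dpp6* exceeded *Dpp10* by 1.85 ± 0.36 in 11 of 11. *Dpp10* exceeded *Fgf11* by 0.88 ± 0.63 in 9 of 11 mice. The exceptions were WT control mice 1 and 2, in which *Fgf11* (7.20 and 8.60 FPKM) was above *Dpp10* (6.91 and 5.98 FPKM).

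*Fgf12* was lowest in the WT controls. Its level was 37.2, 38.6 and 55.3 FPKM in the 3 WT control mice and 59.8, 58.3 and 67.7 FPKM in the 3 WT mice after PTX. KO controls stood at 60.7, 57.5 and 59.3 FPKM, and the KO mice after PTX at 61.6 and 62.6 FPKM. All 8 mice outside the WT control group were above all 3 WT controls, with the female control the closest to them. The range of the WT PTX mice overlapped those of both KO groups. Both KO PTX mice were just above the highest KO control, at 60.7 FPKM. The share of all genes with this order was not counted, and nothing is read from it. The fitted log2 fold change of *Fgf12* was 0.51 ± 0.10 (SE) for PTX in WT mice and 0.46 ± 0.10 for KO against WT controls. It was 0.03 ± 0.11 for PTX in KO mice and −0.02 ± 0.11 for KO against WT after PTX, and the PTX effect in KO minus that in WT was −0.48 ± 0.15.

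*Dpp10* had the widest relative spread of levels among the members expressed above 1 FPKM. WT controls had 6.91, 5.98 and 9.20 FPKM and WT mice after PTX had 12.3, 10.5 and 13.6 FPKM. KO controls had 15.3, 13.7 and 12.9 FPKM and KO mice after PTX had 13.8 and 12.3 FPKM. As with *Fgf12*, all 8 other mice were above all WT controls, and the KO and PTX groups overlapped one another. The log2 fold change of *Dpp10* was 0.72 ± 0.14 for PTX in WT mice and 0.94 ± 0.15 for KO against WT controls. For PTX in KO mice it was −0.12 ± 0.16, for KO against WT after PTX 0.10 ± 0.16, and the difference of the PTX effects was −0.84 ± 0.22. *Dpp10* is on the same chromosome as the targeted gene, 10.3 Mb from *Gpr37l1* by the table and 11.1 Mb by GENCODE; a difference by genotype at *Dpp10* and one carried by DNA that stayed with the targeted allele from the strain it was made in cannot be told apart in these mice.

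**Figure D1:**
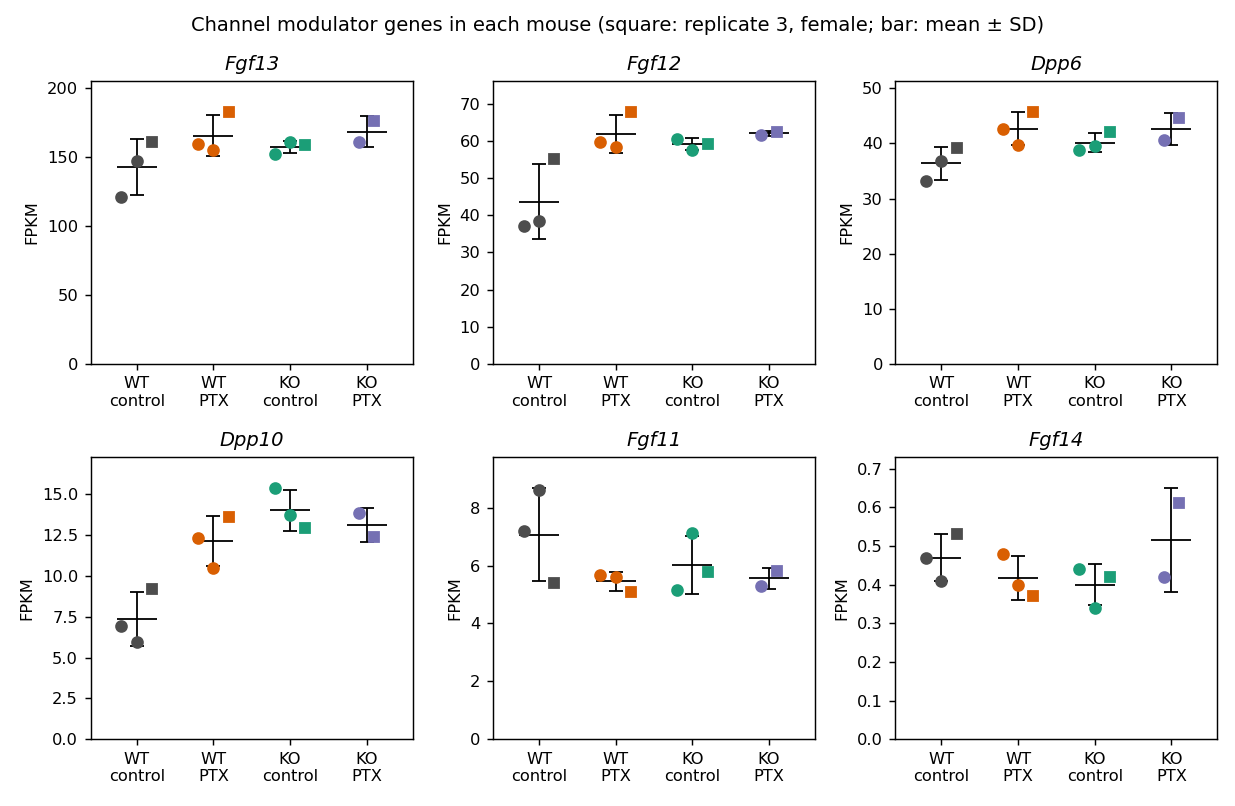
FPKM of the 6 genes (vertical axes, each starting at 0) in each mouse of the 4 groups; squares are female mice (replicate 3), and bars are the group mean ± SD. In the *Fgf12* and *Dpp10* panels all 8 mice of the other groups lie above the 3 WT controls, whereas the groups overlap for *Fgf11* and *Fgf14*.

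*Dpp6*, the close relative of *Dpp10*, differed less. WT controls had 33.2, 36.9 and 39.2 FPKM and WT mice after PTX had 42.6, 39.7 and 45.6 FPKM, which did not overlap. KO controls had 38.9, 39.5 and 42.1 FPKM and KO mice after PTX had 40.6 and 44.7 FPKM, and the KO controls overlapped the WT controls. The log2 fold change of *Dpp6* was 0.23 ± 0.06 for PTX in WT and 0.14 ± 0.06 for KO against WT controls, and 0.06 ± 0.07 for PTX in KO. *Fgf13* showed a similar picture at a higher level. It stood at 121, 147 and 161 FPKM in WT controls, 159, 155 and 182 in WT PTX mice, 152, 161 and 159 in KO controls, and 161 and 176 in KO PTX mice, so that all groups overlapped the WT controls. Its log2 fold change was 0.21 ± 0.08 for PTX in WT, 0.15 ± 0.08 for KO against WT controls and 0.07 ± 0.10 for PTX in KO.

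*Fgf11* had its highest levels in WT controls. The WT controls stood at 7.20, 8.60 and 5.40 FPKM, against 5.69, 5.61 and 5.09 in WT PTX, 5.16, 7.13 and 5.78 in KO control, and 5.30 and 5.82 in KO PTX mice. The female WT control lay among the other groups, so all groups overlapped. The log2 fold change of *Fgf11* was −0.37 ± 0.16 for PTX in WT, −0.22 ± 0.16 for KO against WT controls and −0.08 ± 0.18 for PTX in KO. *Fgf14* had group means of 0.47 ± 0.06 (SD) in WT control, 0.42 ± 0.06 in WT PTX, 0.40 ± 0.05 in KO control and 0.52 ± 0.13 FPKM in KO PTX mice, and its log2 fold changes, fitted without the minimum level, lay between −0.22 and 0.48 with SEs of 0.25 to 0.38. Its groups overlapped; the antisense gene *Gm28932*, which overlaps it, was at 0.36 FPKM.

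**Figure D2:**
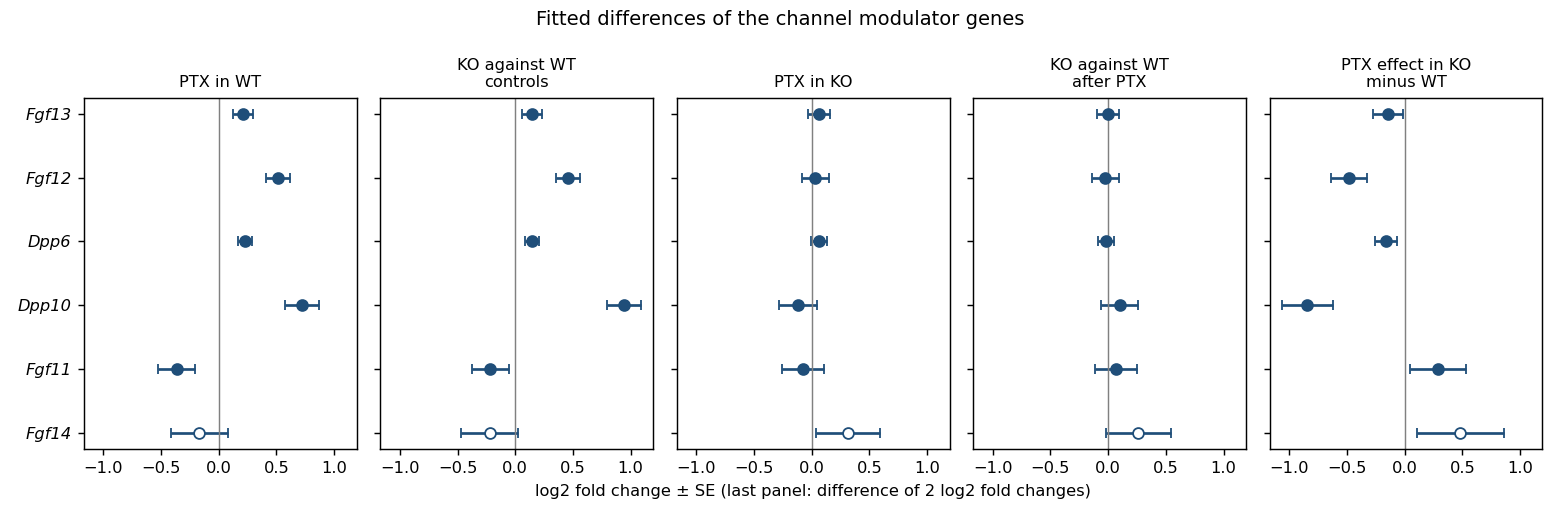
Fitted log2 fold changes ± SE of the 6 genes in 5 comparisons (horizontal axes, log2 scale; the last panel is the difference between the PTX effects in KO and WT mice); the open symbol is *Fgf14*, fitted without the minimum level. *Fgf12* and *Dpp10* stand at 0.51 and 0.72 for PTX in WT and at 0.46 and 0.94 for KO against WT controls, and near 0 where WT controls are not involved.

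Both comparisons in which *Fgf12* and *Dpp10* differed, PTX in WT and KO against WT controls, use the same 3 WT control mice, so their values stand side by side and do not support each other. Across all genes, edgeR at an adjusted *P* under 0.05 called 1 of 15087 genes (0.00663%) for PTX in WT and for KO against WT controls, as for PTX in KO and for the difference of the PTX effects. It called 2 genes (0.0133%) for KO against WT after PTX. None of the 5 members tested was called in these comparisons. Under an unadjusted 0.05, 5 members stood in PTX in WT (13.5% of all genes), 3 in KO against WT controls (7.54%), 2 in the difference of the PTX effects (6.3%), and none in PTX in KO (4.32%) or KO against WT after PTX (3.55%). DESeq2 made more calls, 2.05% of all genes for PTX in WT (0.948% as higher) and 0.278% for KO against WT controls (0.126% as higher). It called *Fgf12*, *Dpp10* and *Dpp6* as higher after PTX in WT and *Fgf12* and *Dpp10* as higher in KO controls. All WT PTX mice were above all WT controls for 3 members and for 6.81% of all genes, all KO controls for 2 members and 4.55%, and all 8 other mice for 2 members and 1.29%. The members were chosen on these differences, and nothing is read from the counts.

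The size of the 2 leading differences depended on the WT control mice. Without the female WT control, *Fgf12* differed by 0.67 ± 0.08 for PTX in WT and by 0.61 ± 0.08 for KO against WT controls. *Dpp10* differed by 0.90 ± 0.14 and 1.11 ± 0.14. These were the highest values over the 22 alternatives run. Without that mouse edgeR called *Fgf12* for PTX in WT, as 1 of 30 among 15087 genes. The call rests on the values used to choose *Fgf12*, and nothing is read from it. The 2 male WT controls with the lowest *Fgf12* had the highest macrophage marker sums, 39.7 and 39.1, and the female WT control had 29.9. The same 2 mice also had the highest sums of sensory neuron markers (5252 and 5347) and of satellite glia markers (1442 and 1279). The female WT control had 4665 and 1006. These ranks did not all hold for mean log2(FPKM + 1), where WT control mouse 1 had the lowest neuron marker value (7.29). With the macrophage marker score as a further covariate, chosen after seeing the data, *Fgf12* differed by 0.02 ± 0.19 for PTX in WT and by 0.20 ± 0.12 for KO against WT controls. *Dpp10* then differed by −0.15 ± 0.19 and 0.48 ± 0.12, and *Fgf11* by 0.32 ± 0.35 and 0.14 ± 0.22. *Fgf13* differed by 0.07 ± 0.21 and 0.07 ± 0.13. The difference of the PTX effects shrank to −0.09 ± 0.18 for *Fgf12* and −0.15 ± 0.19 for *Dpp10*. Where WT controls are not involved, *Dpp10* moved to −0.30 ± 0.10 between the KO groups and to 0.33 ± 0.10 between the PTX groups (KO minus WT). The macrophage score, a mean log2(FPKM + 1), was 1.982 to 2.178 in WT controls and at most 1.932 in every other mouse. It separated WT controls from all other groups, as *Fgf12* and *Dpp10* did, so these fits cannot tell macrophage content and group apart. The part of macrophage content in the results was not tested beyond these fits. With the muscle score as covariate, *Fgf12* differed by 0.57 ± 0.11 and 0.44 ± 0.10 and *Dpp10* by 0.82 ± 0.16 and 0.92 ± 0.14. Relative to the mean log2 level of the 12 sensory neuron markers, *Fgf12* was at −1.93 ± 0.32 (SD) in WT controls, −1.41 ± 0.11 in WT PTX, −1.49 ± 0.06 in KO control and −1.45 ± 0.03 in KO PTX mice. *Dpp10* was at −4.48 ± 0.35, −3.76 ± 0.18, −3.57 ± 0.14 and −3.69 ± 0.10 on the same scale. The marker level itself was 7.357, 7.365, 7.383 and 7.406 in these groups, so the ratios largely repeat the FPKM differences. The part of neuron content was not tested.

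**Figure D3:**
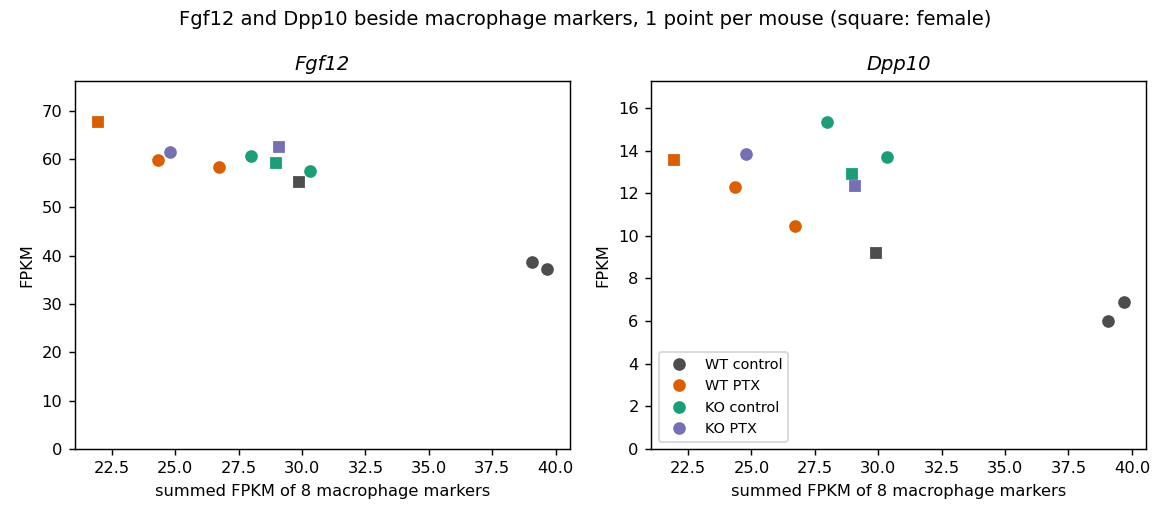
FPKM of *Fgf12* and *Dpp10* (vertical axes) against the summed FPKM of 8 macrophage markers (horizontal axes), 1 point per mouse, squares female. WT control mice 1 and 2, at 39.7 and 39.1, are apart from the 9 others in both measures, and the female WT control, at 29.9, lies among the macrophage sums of the KO controls.

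Gene span was not used in the choice of members. It went with the direction of the differences across the genome in the 2 comparisons that share the 3 WT controls. For PTX in WT the median log2 fold change was −0.09 for the 4878 genes that span under 10 kb, −0.01 for the 6331 of 10 to 50 kb, 0.07 for the 3120 of 50 to 200 kb, 0.10 for the 600 of 200 to 500 kb and 0.19 for the 158 over 500 kb. For KO against WT controls the medians over the same classes were −0.07, 0.00, 0.06, 0.08 and 0.14. Of the genes over 500 kb, 132 of 158 (83.5%) had a positive value for PTX in WT and 133 (84.2%) for KO against WT controls. For PTX in KO, where the median of this class was 0.04, there were 105 (66.5%). For KO against WT after PTX, where it was 0.01, there were 89 (56.3%). *Fgf13* and *Dpp6*, both over 500 kb, lay near the median of that class in the 2 comparisons with WT controls. *Fgf12* and *Dpp10* lay above the 90th percentiles of their classes, 0.34 for both classes in PTX in WT and 0.28 and 0.27 for KO against WT controls; by its GENCODE span *Fgf12* would belong to the class over 500 kb. *Fgf11*, the short member, lay below the lower quartile of its class for PTX in WT, which was −0.24. These are descriptions over genes that share libraries, and whether length, RNA quality or cell content sets the pattern was not tested.

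**Figure D4:**
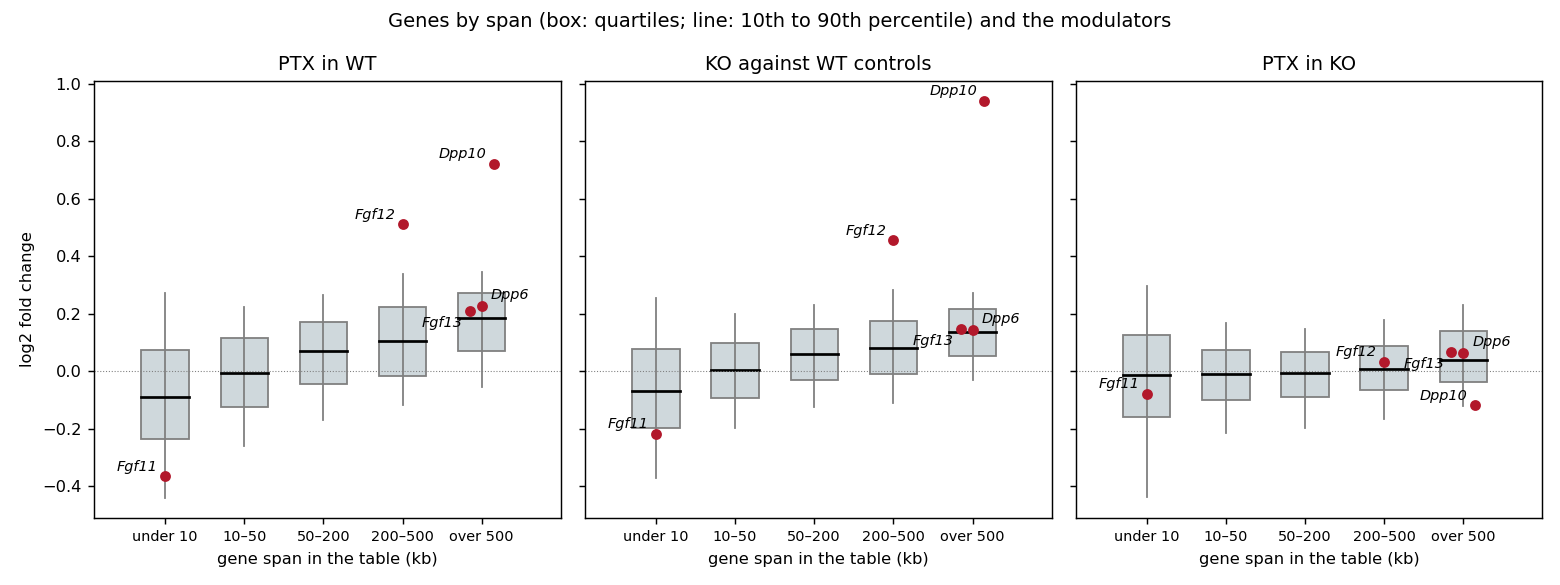
Log2 fold changes (vertical axis) of all tested genes by span in kb (horizontal axis; boxes are quartiles with the median, lines run from the 10th to the 90th percentile) with the 5 tested members as red points. The class medians climb from −0.09 to 0.19 for PTX in WT and from −0.07 to 0.14 for KO against WT controls, and stay between −0.01 and 0.04 for PTX in KO.

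Female and male mice were compared by a contrast that the choice of members did not use. The fit shares the WT control values on which *Fgf12* and *Dpp10* were chosen, so it is not independent of that choice. edgeR called 6 genes (0.0398%) and none of the members (3 under an unadjusted 0.05, beside 8.44% of all genes). *Fgf12* was 0.20 ± 0.08 higher in females on the log2 scale (edgeR adjusted *P* = 0.547), *Dpp6* 0.13 ± 0.05 (adjusted *P* = 0.547) and *Fgf13* 0.15 ± 0.07 (adjusted *P* = 0.580). *Dpp10* differed by 0.12 ± 0.11 (adjusted *P* = 0.787), with a sign that turned when the female WT control was left out (−0.015), and *Fgf11* by −0.19 ± 0.13 (adjusted *P* = 0.706). Over 20 alternatives *Fgf12* ran from 0.077 to 0.28 and *Fgf11* from −0.28 to −0.057, each smallest in size without the female WT control.

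The channels that these proteins attend were measured in the same fits, with initial segment and scaffold genes, peptidase relatives, secreted FGFs and FGF receptors. In 8 lists of 45 genes, 37 passed the minimum level, and edgeR called none of them in any comparison. For PTX in WT, 9 were higher and 2 lower under an unadjusted 0.05, and DESeq2 called 3, beside 13.5% and 2.05% of all genes. For KO against WT controls these numbers were 7, 0 and 0, beside 7.54% and 0.278% of all genes. Not all of these were channel genes. Secreted FGFs made up 2 of the 9 and 2 of the 7. The 2 lower after PTX in WT were 1 peptidase relative and 1 FGF receptor. The pore-forming sodium channel subunits had a median log2 fold change of 0.25 for PTX in WT and 0.21 for KO against WT controls (8 of 10 tested, 7 positive in each), beside −0.01 and 0.00 over all genes. Among the most abundant, the nociceptor channel gene *Scn10a* (Nav1.8) differed by 0.10 ± 0.09 for PTX in WT (edgeR adjusted *P* = 0.634) and *Scn11a* (Nav1.9) by 0.22 ± 0.07 (adjusted *P* = 0.288). *Scn9a* (Nav1.7), at 21.8 ± 4.5 FPKM (SD) in WT controls, differed by 0.31 ± 0.14 (adjusted *P* = 0.377), and the sodium-sensing glial channel gene *Scn7a* by 0.29 ± 0.11 (adjusted *P* = 0.320). The sodium channel beta subunits had a median of 0.00 for PTX in WT and 0.04 for KO against WT controls, with *Scn3b* at 0.26 ± 0.07 for PTX in WT.

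Among the Kv4 pore genes, which DPP6 and DPP10 join, *Kcnd1* was the most abundant at 58.0 ± 4.2 FPKM (SD) in WT controls and differed by −0.05 ± 0.07 for PTX in WT (edgeR adjusted *P* = 0.747). *Kcnd3* was at 11.7, 12.5 and 15.8 FPKM in WT controls and at 0.17, 15.4 and 17.1 in WT PTX mice. The single low value, of 142 estimated counts, belonged to WT PTX mouse 1; with it the difference was −0.34 ± 0.93 and without it 0.27 ± 0.10 (adjusted *P* = 0.885 and 0.686). *Kcnd2* lay between 0.29 and 1.08 FPKM; its KO controls were at 0.29, 0.29 and 0.43 and its KO PTX mice at 0.51 and 1.08, a difference of 1.10 ± 0.34 (edgeR adjusted *P* = 0.999). The 1.08 was KO PTX mouse 3, the library with the highest spinal cord marker sum, and the part of spinal cord content was not tested. All 4 KChIP genes had a positive value for PTX in WT (median 0.23) and for KO against WT controls (median 0.12). *Kcnip4*, at 46.7, 46.7 and 61.2 FPKM in WT controls and 61.6, 64.5 and 75.4 in WT PTX mice, differed by 0.38 ± 0.08 (edgeR adjusted *P* = 0.203), and *Kcnip3*, the most abundant KChIP gene, by 0.02 ± 0.07 (adjusted *P* = 0.930). The genes of these lists that DESeq2 called in PTX in WT included *Kcnip4* and *Scn3b*.

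**Figure D5:**
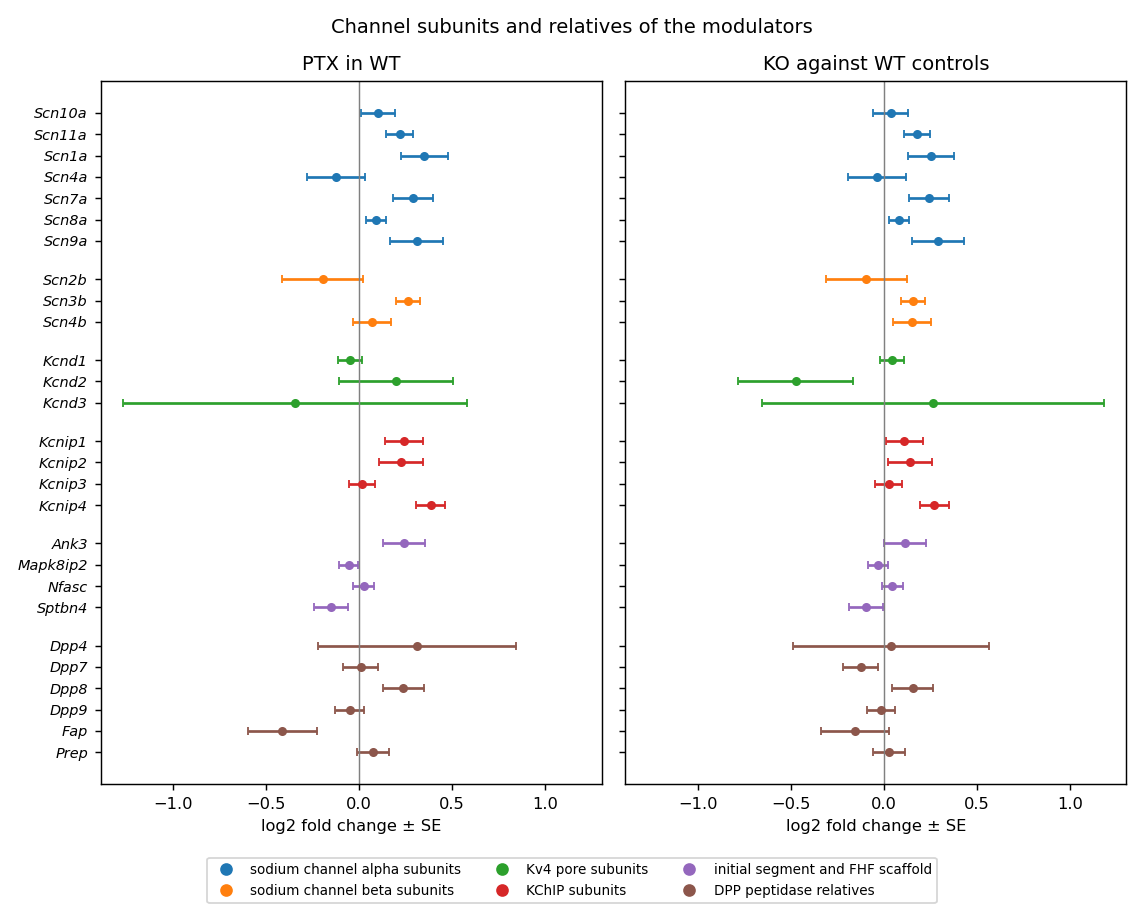
Log2 fold changes ± SE (horizontal axes) of sodium channel and Kv4 channel subunits, initial segment and scaffold genes and active relatives of the DPP proteins for PTX in WT and KO against WT controls. All but 1 of the sodium channel alpha subunits drawn lie right of 0 in each panel, and *Kcnd3* has the widest bar for PTX in WT, from the single low library.

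Of the remaining lists, genes of the axon initial segment and the intracellular FGF scaffold had a median of −0.02 for PTX in WT (4 tested), with *Mapk8ip2*, which encodes a scaffold that binds intracellular FGFs, at −0.06 ± 0.05, and *Ank3*, the initial segment anchor, at 0.24 ± 0.11 (edgeR adjusted *P* = 0.636 and 0.380). The peptidase relatives of the DPP genes had a median of 0.04 for PTX in WT and 0.00 for KO against WT controls (6 tested), with *Dpp9* at −0.05 ± 0.08 and *Dpp8* at 0.24 ± 0.11 for PTX in WT. Of the secreted FGFs 6 of 9 were tested (medians 0.05 and 0.07), and *Fgf1*, the most abundant at 115.5 ± 17.1 FPKM (SD) in WT controls, differed by 0.33 ± 0.11 for PTX in WT (edgeR adjusted *P* = 0.305). Of the FGF receptors 2 of 5 were tested, with medians of −0.18 for PTX in WT and −0.32 for PTX in KO. *Fgfr1* differed by 0.04 ± 0.06 for PTX in WT (edgeR adjusted *P* = 0.784), and *Fgfrl1*, which encodes a receptor without the kinase domain, by −0.41 ± 0.16 for PTX in WT and −0.59 ± 0.18 for PTX in KO (adjusted *P* = 0.338 and 0.999).

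Over the 11 mice, the genes whose pattern was most like that of *Fgf12* were *Rcan2*, *Parm1* and *Pqlc3* (Pearson *r* of log2(FPKM + 1) 0.988, 0.978 and 0.974). For *Dpp10* these were *Parm1*, *Tenm3* and *Tonsl* (0.925, 0.923 and 0.917) and for *Fgf13* *Ncor1*, *Magi1* and *Epc1* (0.984, 0.980 and 0.979), and for *Dpp6* they included *Synj2* and *Gng2* (0.988 and 0.962). For *Fgf11* they were *Socs3*, *Trpv2* and *Itga3* (0.971, 0.965 and 0.946), and for *Fgf14* *Endov*, *Rhbdl1* and *Xndc1* (0.938, 0.933 and 0.888). Between members, *r* was 0.912 for *Fgf12* and *Dpp10*, 0.943 for *Fgf13* and *Dpp6*, and −0.832 for *Fgf11* and *Fgf12*. The points share libraries and groups, and the values describe these 11 mice.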

How the data were processed

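Per the labels, poly(A) RNA of mouse DRGs was prepared with a stranded TruSeq kit. The submitters' processing notes name cutadapt, FastQC, HISAT2, StringTie and mm10, without versions, and the annotation was not given in the sources used here. The authors deposited a table with an estimated count and an FPKM value for each gene and mouse; no columns of other samples were used. Estimated counts were rounded (more genes stood at 4 than at 3 in WT control mouse 1, 1369 against 573). Count per FPKM was nearly constant for each gene, so the FPKM used 1 length per gene and holds no isoform information; that length was 1.08 to 1.09 times the GENCODE vM21 exon union for 5 members and 1.18 times for *Dpp10*.

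Genes whose FPKM averaged 0.5 or more (15087 of 36670) were tested with the edgeR 4.0.16 quasi-likelihood test (R 4.3.3; TMM scaling, 4 groups and sex in 1 fit of 11 libraries, Benjamini-Hochberg threshold 0.05). Each SE is the log2 fold change over the root of the *F* statistic. DESeq2 1.42.0 and limma 3.58.1 were alternatives, and the code was tested on simulated data. Ratios between members used log2(FPKM + 0.1), and likeness log2(FPKM + 1) over genes of mean FPKM at least 1. Named genes were the 6 members, *Gpr37l1*, up to 4 of the most abundant genes of each list, and the 3 genes most like each member; some of these are not reported here. Members and lists were chosen with earlier results of these data known. The labels do not say how many animals gave each library; a library is called a mouse here, and *P* values measure the spread between libraries. The KO PTX mice are numbered 2 and 3 in the sample descriptions and 1 and 2 in the titles.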

Additional observations from a re-analysis of the deposited data

How the results depend on the processing

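The order of the 6 members kept its direction, for each of the 5 neighbour pairs, in all 13 alternatives run. Counts of genes called in PTX in WT, PTX in KO, KO against WT controls, KO against WT after PTX, the difference of the PTX effects and female against male were 309, 29, 42, 10, 12 and 123 with DESeq2, against 1, 1, 1, 2, 1 and 6 with edgeR, and 3 and 2 members were among the first and the third. PTX in WT gave 2 genes without the minimum level, 0 without the sex covariate, 0 with limma at either pseudocount, 11 with the muscle score and 0 with the macrophage score as covariate. The sex comparison gave 14 genes without the minimum level and 19 with the muscle score, KO against WT after PTX gave 4 with the muscle score, and PTX in KO gave 3 with the spinal cord score. Leaving out 1 mouse in turn gave 0 to 30 genes in PTX in WT (30 without WT control mouse 3, 0 to 1 members), 1 to 7 in PTX in KO, 1 to 4 in KO against WT controls, 2 to 7 in KO against WT after PTX, 1 to 6 in the difference of the PTX effects and 5 to 12 between the sexes. With the replicate number as a block in place of sex, PTX in WT gave 1 gene and no member, and no count of calls changed. Deviations of same-numbered mice from their group means correlated at −0.15 to 0.25 (15 pairs, mean 0.08). The mean of −0.04 over 30 differently numbered pairs follows largely from centring on group means, so it is no separate level for comparison. Not all same-numbered pairs exceeded 0.1, so the numbers were not taken to pair the mice, although number 3 also marks the females. The sex difference of *Dpp10* turned to −0.033 with the macrophage score and ran from −0.015 to 0.23 when mice were left out in turn. The cause of these changes was not tested. *Fgf14* had the fewest counts, 93 to 176 a library.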
